A study of Mus musculus with 12 samples.

Results

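The genes *Slpi*, *Wfdc2* and *Wfdc16* encode small secreted proteins of the whey acidic protein (WAP) domain family and lie near each other on mouse chromosome 2. They were taken from the deposited expression table by symbol and were chosen by their FPKM values in these same libraries, which had differed between genotypes, so those differences are given below as a description without a test. They are 3 of the 47069 genes listed, and 28019 of the listed genes were above 0 in at least 1 library.

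The study examined livers of mice at postnatal day 14 in which hepatocytes cannot divide because they lack the cell cycle kinase CDK1. Polyadenylated RNA was sequenced from isolated hepatocytes and from whole liver, and levels are given as FPKM, a level scaled by transcript length and library size. The 12 libraries formed 4 groups of 3, with hepatocytes from WT mice and from *Cdk1* Liv-/- mice and with whole liver from both genotypes. The FPKM values of a library summed to between 649066 and 698265. *Cdk1* Liv-/- mice carry floxed *Cdk1* alleles and a Cre recombinase driven by the albumin promoter, which is active in hepatocytes and in part in embryonic hepatoblasts. The control mice are given as wild type, and the labels do not say whether they carried the floxed allele or Cre. The study's methods give at least 3 biological replicates for its experiments, while the labels do not say which animal each library came from, so each p-value measures the spread between these libraries.

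In each compartment 1 library stood apart. The study's methods state that only male mice were used, but *Cdk1* Liv-/- whole liver replicate 3 held 158 FPKM of *Xist*, the RNA of the inactive X chromosome. Its Y chromosome genes *Kdm5d*, *Uty*, *Ddx3y* and *Eif2s3y* were all at 0. Among the remaining 11 libraries the highest *Xist* was 0.14 FPKM, and the summed level of these Y chromosome genes ran from 48.4 to 62.1 FPKM. WT hepatocytes replicate 3 had the highest summed macrophage, stellate cell, endothelial and neutrophil markers among the isolated hepatocyte libraries, with summed macrophage markers at 756 FPKM against 411 and 227 FPKM in replicates 1 and 2. Results that rest on these libraries are given with and without them.

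*Cdk1* (ENSMUSG00000019942) was measured at 27.9, 20.4 and 28.2 FPKM in WT hepatocytes and at 9.68, 11.8 and 6.87 FPKM in *Cdk1* Liv-/- hepatocytes. In whole liver it was at 25.3, 22.7 and 21.5 FPKM in WT and at 11.7, 12.1 and 14.2 FPKM in *Cdk1* Liv-/- libraries. All *Cdk1* Liv-/- libraries were below all WT libraries of their compartment. The difference on log2(FPKM + 0.5) was -1.40 in hepatocytes (SE 0.22, limma adjusted p = 0.0148) and -0.85 in whole liver (SE 0.10, limma adjusted p = 0.00353), both lower in 3 of 3 libraries. A gene was called when the adjusted p over 17386 genes was at most 0.1 and the log2 difference at least 1 in size, so *Cdk1* fell in hepatocytes and its whole liver difference was short of that size. The Cre removes a single exon, and a gene-level FPKM does not separate that exon from the rest of the transcript.

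The WAP domain is a compact fold held together by disulfide bonds, and many of its carriers block serine proteases in secretions and at epithelial surfaces. SLPI, the secretory leukocyte protease inhibitor, blocks neutrophil elastase, cathepsin G and trypsin, shields progranulin from cleavage and dampens inflammatory signalling in macrophages. WFDC2 is a secreted WAP protein of epithelia that is measured in blood as an ovarian cancer marker, and *Wfdc16* is a less studied gene of the same chromosomal cluster, which also holds genes of the male reproductive tract such as *Eppin*.

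The starts of the 3 genes were spread over less than the 500 kb used below as a window. *Slpi* (ENSMUSG00000017002) is annotated at chr2:164354070-164389095 on the minus strand, *Wfdc2* (ENSMUSG00000017723) at chr2:164562413-164568510 on the plus strand and *Wfdc16* (ENSMUSG00000070530) at chr2:164634707-164638796 on the minus strand, all in mm10. The start of *Wfdc2* lay 206 kb and that of *Wfdc16* 282 kb from the RefSeq start of *Slpi*. Their promoters are shown because the 3 genes were high in the same libraries. All 3 matched the RefSeq promoter table of GRCm38.p6, in which *Wfdc2* has 2 entries, of which the first was used. The windows below are placed by the starts of that table. For *Slpi* and *Wfdc2* they lie inside the annotated spans given above. The 250 bases before each start are given 5′ to 3′ on the strand of the gene, from chr2:164356508-164356757 (minus), chr2:164562465-164562714 (plus) and chr2:164638803-164639052 (minus), with capitals marking the 1 motif match that was found.
Slpi: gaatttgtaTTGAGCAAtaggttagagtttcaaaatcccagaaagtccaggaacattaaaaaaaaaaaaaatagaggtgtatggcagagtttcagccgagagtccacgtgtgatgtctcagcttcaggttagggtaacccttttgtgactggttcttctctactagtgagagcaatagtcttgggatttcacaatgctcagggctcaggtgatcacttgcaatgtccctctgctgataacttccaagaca
Wfdc2: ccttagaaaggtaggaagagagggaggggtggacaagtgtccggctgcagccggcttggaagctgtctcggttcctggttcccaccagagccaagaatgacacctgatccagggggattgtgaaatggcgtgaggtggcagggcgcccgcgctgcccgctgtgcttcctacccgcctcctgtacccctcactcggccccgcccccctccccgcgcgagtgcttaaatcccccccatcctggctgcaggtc
Wfdc16: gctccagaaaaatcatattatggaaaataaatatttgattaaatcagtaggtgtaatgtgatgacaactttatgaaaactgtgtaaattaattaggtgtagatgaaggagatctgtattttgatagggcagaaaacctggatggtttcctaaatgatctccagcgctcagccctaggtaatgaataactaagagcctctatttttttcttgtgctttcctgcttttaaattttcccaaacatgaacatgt

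Motifs were searched on both strands of 300 bases, 250 before and 50 after the start. The STAT motif TTCNNNGAA was found in 8.5% of the 27025 promoters of the table, the CEBP motif TTGCNNAA in 10.8% and the kappaB consensus in 4.3%. The *Slpi* promoter held 1 CEBP match, which reads TTGAGCAA on the strand shown, lies on the opposite strand from -241 to -234 and overlapped no other match. The *Wfdc2* and *Wfdc16* promoters held 0 matches to any of them. A match is a description of letters, and 0 matches says only that these letters are not in this window.

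*Slpi* was a scarce transcript in WT liver and an abundant one in *Cdk1* Liv-/- liver. In hepatocytes it was measured at 0.29, 0.06 and 1.12 FPKM in WT and at 57.6, 168 and 135 FPKM in *Cdk1* Liv-/- libraries. In whole liver it was at 0.54, 0.75 and 0.56 FPKM in WT and at 137, 366 and 205 FPKM in *Cdk1* Liv-/- libraries. The WT libraries were all near or below 1 FPKM, and no *Cdk1* Liv-/- library came near them. By mean level *Slpi* ranked 13152 of 17386 genes in WT hepatocytes and 589 in *Cdk1* Liv-/- hepatocytes, and in whole liver it ranked 13104 in WT and 336 in *Cdk1* Liv-/- mice. Group means were 0.490 ± 0.558 FPKM (SD, n = 3) and 120 ± 56.8 FPKM in hepatocytes, and 0.617 ± 0.116 FPKM and 236 ± 117 FPKM in whole liver. The ratio of these means was 246 in hepatocytes and 383 in whole liver. The hepatocyte ratio would be larger without WT replicate 3, at 1.12 FPKM against 0.29 and 0.06 FPKM in replicates 1 and 2. Nothing is therefore read from the order of these ratios.

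The low WT level of *Slpi* rested on few reads. From the depth estimated for each library, the 0.06 FPKM of WT hepatocytes replicate 2 stood for about 1.0 to 1.9 reads, and the WT whole liver values for 9.3 to 25.1 reads. The log2(FPKM + 0.5) difference of *Slpi* was 6.94 in hepatocytes (SE 0.53) and 7.62 in whole liver (SE 0.35). Without WT hepatocytes replicate 3, the highest WT library, the hepatocyte difference was 7.37, and without *Cdk1* Liv-/- whole liver replicate 3 the whole liver difference was 7.66.

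*Wfdc2* was already present in WT liver and was higher in all *Cdk1* Liv-/- libraries. In hepatocytes it was measured at 5.40, 3.84 and 3.33 FPKM in WT and at 30.8, 18.0 and 17.6 FPKM in *Cdk1* Liv-/- libraries. In whole liver it was at 4.24, 4.20 and 3.22 FPKM in WT and at 11.9, 6.29 and 12.8 FPKM in *Cdk1* Liv-/- libraries. The genotypes did not overlap in either compartment, and *Cdk1* Liv-/- whole liver replicate 2 came nearest to the WT libraries. Mean levels were 4.19 ± 1.08 FPKM (SD, n = 3) against 22.1 ± 7.51 FPKM in hepatocytes, a ratio of 5.28, and 3.89 ± 0.578 FPKM against 10.3 ± 3.53 FPKM in whole liver, a ratio of 2.66. The log2(FPKM + 0.5) difference of *Wfdc2* was 2.25 in hepatocytes (SE 0.27) and 1.25 in whole liver (SE 0.28). It was 2.11 in hepatocytes without WT replicate 3 and 1.07 in whole liver without *Cdk1* Liv-/- replicate 3.

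*Wfdc16* was scarce in WT liver and reached a middle level in *Cdk1* Liv-/- hepatocytes. In hepatocytes it was measured at 0.39, 0.67 and 0.30 FPKM in WT and at 14.3, 8.21 and 8.42 FPKM in *Cdk1* Liv-/- libraries. In whole liver it was at 0.46, 0.87 and 0.40 FPKM in WT and at 3.57, 2.85 and 5.34 FPKM in *Cdk1* Liv-/- libraries. Every *Cdk1* Liv-/- library was above every WT library. Mean levels were 0.453 ± 0.193 FPKM (SD, n = 3) against 10.3 ± 3.46 FPKM in hepatocytes, a ratio of 22.7, and 0.577 ± 0.256 FPKM against 3.92 ± 1.28 FPKM in whole liver, a ratio of 6.80. The log2(FPKM + 0.5) difference of *Wfdc16* was 3.48 in hepatocytes (SE 0.27) and 2.02 in whole liver (SE 0.26). It was 3.36 in hepatocytes without WT replicate 3 and 1.80 in whole liver without *Cdk1* Liv-/- replicate 3.

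**Figure D1:**
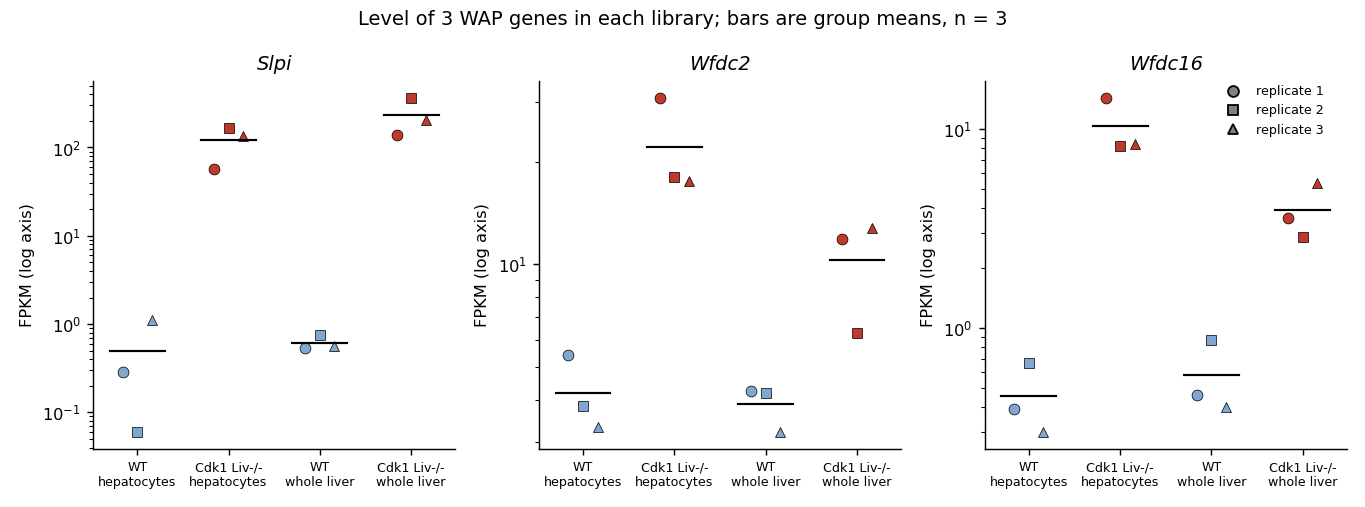
FPKM of *Slpi*, *Wfdc2* and *Wfdc16* on log axes in each of 12 libraries, with replicates as separate marks and bars at the group means (n = 3). The *Cdk1* Liv-/- libraries lie above the WT libraries in both compartments, *Slpi* is highest in *Cdk1* Liv-/- whole liver, and the other genes are highest in *Cdk1* Liv-/- hepatocytes.

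All 3 genes had all *Cdk1* Liv-/- libraries above all WT libraries in both compartments, a pattern shared by 20.6% of the 17386 genes tested in hepatocytes and by 43.2% in whole liver. Since this contrast led to the choice of the genes, nothing is read from that count. The order of levels differed among the genes, as the plot of FPKM by library shows. Mean *Slpi* in *Cdk1* Liv-/- whole liver was 1.96 times that in *Cdk1* Liv-/- hepatocytes, with libraries that overlapped. Mean *Wfdc2* in *Cdk1* Liv-/- hepatocytes was 2.14 times that in *Cdk1* Liv-/- whole liver, and mean *Wfdc16* 2.63 times, in both cases without overlap. The WT groups of the compartments overlapped for each of the 3 genes. These compartment differences within *Cdk1* Liv-/- liver were not tested. The share of all genes without overlap between these compartments was not counted, so nothing is read from the lack of overlap.

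Within *Cdk1* Liv-/- groups the genes also differed in which library was highest. *Slpi* was lowest in hepatocytes replicate 1, the library in which *Wfdc2* and *Wfdc16* were highest. *Slpi* was highest in whole liver replicate 2, in which *Wfdc2* and *Wfdc16* were the lowest of their group. The level of *Wfdc2* over that of *Wfdc16*, both in FPKM, was 2.15, 2.19 and 2.09 in *Cdk1* Liv-/- hepatocytes. It was 3.33, 2.21 and 2.40 in *Cdk1* Liv-/- whole liver, 13.8, 5.73 and 11.1 in WT hepatocytes and 9.22, 4.83 and 8.05 in WT whole liver. The ratio of *Wfdc2* to *Wfdc16* thus varied little among *Cdk1* Liv-/- hepatocyte libraries and was lower there than in any WT library. The level of *Slpi* over that of *Wfdc2* spread more widely, at 1.87, 9.35 and 7.67 in *Cdk1* Liv-/- hepatocytes and 11.6, 58.1 and 16 in *Cdk1* Liv-/- whole liver.

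Comparing isolated hepatocytes with whole liver in WT mice asks whether these genes were already more abundant in one compartment, a contrast that did not choose them. *Slpi*, *Wfdc2* and *Wfdc16* had overlapping levels in both compartments. On log2(FPKM + 0.5), WT hepatocytes minus WT whole liver was -0.31 for *Slpi* (SE 0.38, limma adjusted p = 0.659), with 2 of the 3 hepatocyte libraries below all whole liver libraries. It was 0.08 for *Wfdc2* (SE 0.19, limma adjusted p = 0.831) and -0.17 for *Wfdc16* (SE 0.22, limma adjusted p = 0.679). Limma called 0 of the 3 genes in a comparison with 81 of 17386 genes called (0.466%), and their unadjusted p were 0.441, 0.692 and 0.467. Without WT hepatocytes replicate 3, 527 genes were called and *Slpi* differed by -0.74 with a limma adjusted p of 0.0768, short of a log2 difference of 1. Over 11 alternatives the adjusted p of *Slpi* ranged from 0.0768 to 0.980, that of *Wfdc2* from 0.488 to 0.948 and that of *Wfdc16* from 0.403 to 0.976. At 1.0 to 42.4 reads per library for *Slpi* in these libraries, small differences were not detectable.

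The rest of the WAP family held 20 genes, and *Wfdc21* rose in both compartments of *Cdk1* Liv-/- liver. *Wfdc21*, which encodes another small secreted WAP protein, was measured at 4.23, 3.59 and 3.46 FPKM in WT hepatocytes and at 313, 113 and 249 FPKM in *Cdk1* Liv-/- hepatocytes. In whole liver *Wfdc21* was at 4.93, 3.06 and 3.33 FPKM in WT and at 27.0, 36.4 and 39.3 FPKM in *Cdk1* Liv-/- libraries. It was higher in 3 of 3 *Cdk1* Liv-/- libraries of each compartment, by 5.61 in log2(FPKM + 0.5) in hepatocytes (SE 0.37, limma adjusted p = 0.00129) and by 3.03 in whole liver (SE 0.21, limma adjusted p = 0.000784). The effect of genotype on *Wfdc21* was larger in hepatocytes by 2.58 in log2 (limma interaction, adjusted p = 0.0335). At the level of FPKM, *Wfdc21* in *Cdk1* Liv-/- hepatocytes was thus higher than *Wfdc2* and *Wfdc16* in each library, and higher than *Slpi* in replicates 1 and 3.

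*Wfdc15b*, a neighbour of *Slpi*, was measured at 0, 0.06 and 0.15 FPKM in WT hepatocytes and at 1.92, 1.79 and 1.29 FPKM in *Cdk1* Liv-/- hepatocytes. Its difference in log2(FPKM + 0.5) was 1.92 in hepatocytes and 0.63 in whole liver. These are a description without a p, since *Wfdc15b* passed the filter at a mean of 0.1 FPKM only through the *Cdk1* Liv-/- libraries. *Wfdc3* rose by 1.10 in *Cdk1* Liv-/- whole liver, where it was at 1.17, 2.75 and 1.26 FPKM against a WT mean of 0.490 FPKM, higher in 3 of 3 libraries (limma adjusted p = 0.0256). That call was lost without *Cdk1* Liv-/- whole liver replicate 2, at 0.79, and with size factors, at 0.94. *Wfdc1*, which encodes a secreted WAP protein of stromal cells, was measured at 3.49, 1.48 and 6.07 FPKM in WT hepatocytes and at 0.93, 0.89 and 0.43 FPKM in *Cdk1* Liv-/- hepatocytes. It fell by 1.60 in log2, lower in 3 of 3 libraries (limma adjusted p = 0.0749), but was called in only 4 of 11 alternatives. The *Wfdc1* call was lost without any 1 of the 3 *Cdk1* Liv-/- hepatocyte libraries (log2 difference -1.71, -1.69 and -1.40) or without WT hepatocytes replicate 1 or 3 (-1.56 and -1.20).

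Of the 20 other WAP genes 7 passed the filter at a mean of 0.1 FPKM over all 12 libraries. Since *Wfdc15b*, 1 of the 7, had to differ to pass it, the counts that include it are a description. In hepatocytes 2 of these 7 rose and 1 fell, where 730 genes (4.20%) rose and 377 (2.17%) fell among all 17386. In whole liver 2 of the 7 rose and 0 fell, where 798 genes (4.59%) rose and 174 (1.00%) fell. The median log2 difference of the 7 was 0.01 in hepatocytes, against 0.05 for all genes, and 0.63 in whole liver, against 0.18. With size factors the hepatocyte median of the 7 became -0.02 and changed sign. The same scaling moved the whole liver median of all genes from 0.18 to 0.01, a shift of -0.17, and the share of called whole liver genes that rose from 82.1% to 67.9%, so whole liver differences stand relative to that shift. The interaction was called in the direction of hepatocytes for 2 of the 7 (*Wfdc21* and *Wfdc15b*) and of whole liver for 2 (*Wfdc3* and *Wfdc18*), against 409 (2.35%) and 1303 (7.49%) of all genes. Without WT hepatocytes replicate 3 the number called in hepatocytes was 2 in place of 3, and without *Cdk1* Liv-/- whole liver replicate 3 it was 2 in whole liver as before. The whole liver count was 1 without *Cdk1* Liv-/- whole liver replicate 2 and with size factors, both of which ended the call of *Wfdc3*, and 4 with a pseudocount of 0.1, which added *Wfdc18* and *Wfdc15b*.

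The summed level of the WAP family and its make-up were described in each library without a test, since the sum includes the 3 genes chosen by these values. The summed level of all 23 WAP genes was 23.7, 15.8 and 29.5 FPKM in WT hepatocytes and 425, 315 and 418 FPKM in *Cdk1* Liv-/- hepatocytes. In whole liver it was 27.9, 27.7 and 30.3 FPKM in WT libraries and 203, 447 and 289 FPKM in *Cdk1* Liv-/- libraries. *Wfdc17*, a gene induced in activated macrophages, was the most abundant WAP gene in all 6 WT libraries. *Slpi* made up 67.7%, 81.9% and 70.9% of the sum in *Cdk1* Liv-/- whole liver but 13.5%, 53.4% and 32.3% in *Cdk1* Liv-/- hepatocytes. *Wfdc21* made up 73.5%, 35.8% and 59.6% in *Cdk1* Liv-/- hepatocytes and 13.3%, 8.16% and 13.6% in *Cdk1* Liv-/- whole liver. *Slpi* was the leading WAP transcript of *Cdk1* Liv-/- whole liver in each library, while *Wfdc21* led in hepatocytes replicates 1 and 3 and *Slpi* in replicate 2. *Wfdc17* was not called in hepatocytes (9.52 against 4.98 FPKM, limma adjusted p = 0.185) or in whole liver (13.2 against 20.3 FPKM, limma adjusted p = 0.133).

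**Figure D2:**
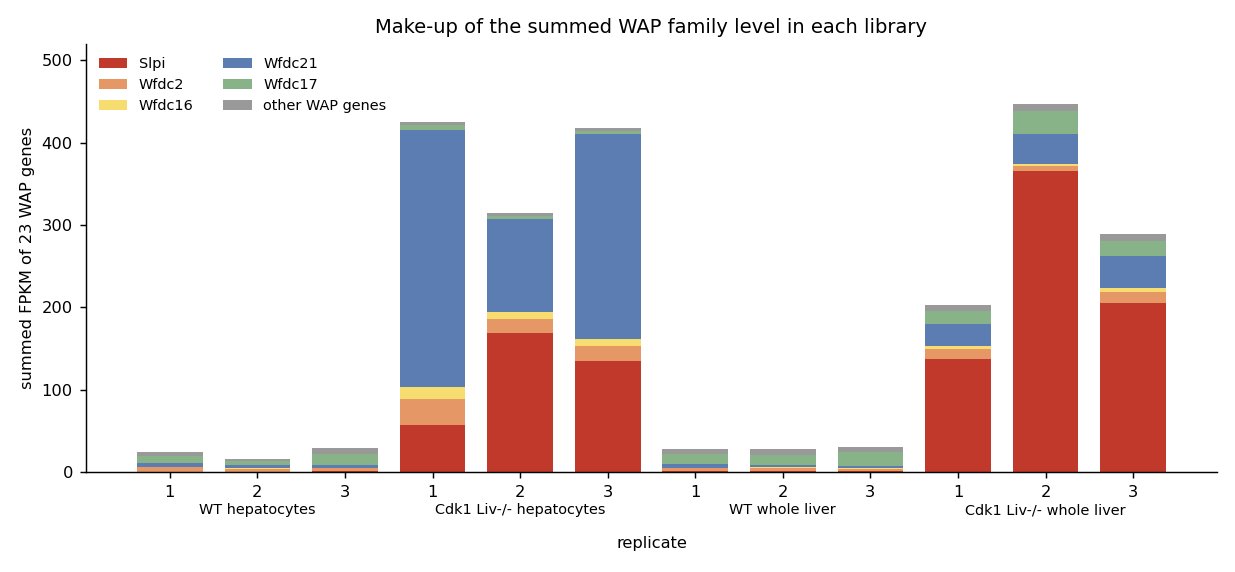
Stacked bars of the summed FPKM of 23 WAP genes in each of 12 libraries, coloured by gene. The sum is at most 30.3 FPKM in the WT libraries, and *Cdk1* Liv-/- hepatocytes replicates 1 and 3 are mostly *Wfdc21* where *Cdk1* Liv-/- whole liver is mostly *Slpi*.

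The genes around *Slpi* were examined to see how far the difference reached along the chromosome. Most neighbours of *Slpi*, *Wfdc2* and *Wfdc16* were not called, as was true of most genes. Within 500 kb of any of them 68 other genes were listed, of which 32 were tested and 21 had a mean of at least 1 FPKM. Of those 21, 17 were called in neither compartment. Among the 32 tested neighbours 29 were not called in hepatocytes and 27 in whole liver. Of all 17386 genes 16279 and 16414 were not called, so nothing is read from the neighbours that were not called. *Sdc4*, which encodes a cell surface proteoglycan and starts 87.4 kb from *Slpi*, was abundant at a mean of 165 FPKM and differed by 0.12 in log2(FPKM + 0.5) in hepatocytes and -0.17 in whole liver (limma adjusted p = 0.844 and 0.481). Of the 16 other WAP and Kunitz genes in the window, 11 were at 0 in all 12 libraries, *Eppin* and *Wfdc5* among them, and 2 were tested. *Wfdc12*, under the filter, was listed at 0 in all WT libraries and at 0.11, 0.11 and 0.25 FPKM in *Cdk1* Liv-/- hepatocytes. Those values stood for about 3.1, 3.0 and 6.1 reads. In *Cdk1* Liv-/- whole liver *Wfdc12* was at 0.06, 0.42 and 0.03 FPKM, or about 2.0, 13.9 and 1.0 reads.

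In hepatocytes 3 of the 32 tested neighbours rose and 0 fell, with a median log2 difference of 0.08, and in whole liver 5 rose and 0 fell, with a median of 0.34. Of all genes 4.20% rose in hepatocytes and 4.59% in whole liver, with medians of 0.05 and 0.18. Of the 32 neighbours 3, *Wfdc15b* among them, had a mean under 0.1 FPKM over the WT libraries and passed the filter through the *Cdk1* Liv-/- libraries. Since *Wfdc15b* was also 1 of the 3 that rose in hepatocytes, that count is a description. *Rims4*, a gene of synaptic vesicle release 438 kb from *Slpi*, was measured at 0.14, 0.10 and 0.20 FPKM in WT hepatocytes and at 6.22, 15.5 and 6.29 FPKM in *Cdk1* Liv-/- hepatocytes. *Rims4* rose in 3 of 3 libraries of each compartment, by 3.80 in log2(FPKM + 0.5) in hepatocytes (limma adjusted p = 0.00339) and 4.05 in whole liver (limma adjusted p = 0.000143). *Ube2c*, a mitotic ubiquitin-conjugating enzyme gene 413 kb from *Slpi*, rose from a mean of 17.9 to 76.4 FPKM in hepatocytes (log2 difference 2.00, limma adjusted p = 0.0142) and from 16.2 to 46.1 FPKM in whole liver (1.48, limma adjusted p = 0.00510), in 3 of 3 libraries of each. *Cd40*, a receptor of immune cells, rose in whole liver from 0.91 to 3.81 FPKM (log2 difference 1.60, limma adjusted p = 0.00400, 3 of 3 libraries). *Dbndd2* rose there from 3.05 to 10 FPKM (log2 difference 1.59, limma adjusted p = 0.0110, 3 of 3 libraries), but *Gm20458* overlaps it on the same strand, so the values of both are uncertain. Without WT hepatocytes replicate 3, *Dbndd2* and *Cd40* were also called in hepatocytes, at 1.46 and 1.13, which made 5 neighbours in place of 3. Without *Cdk1* Liv-/- whole liver replicate 3 the number called in whole liver was 5 as before.

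**Figure D3:**
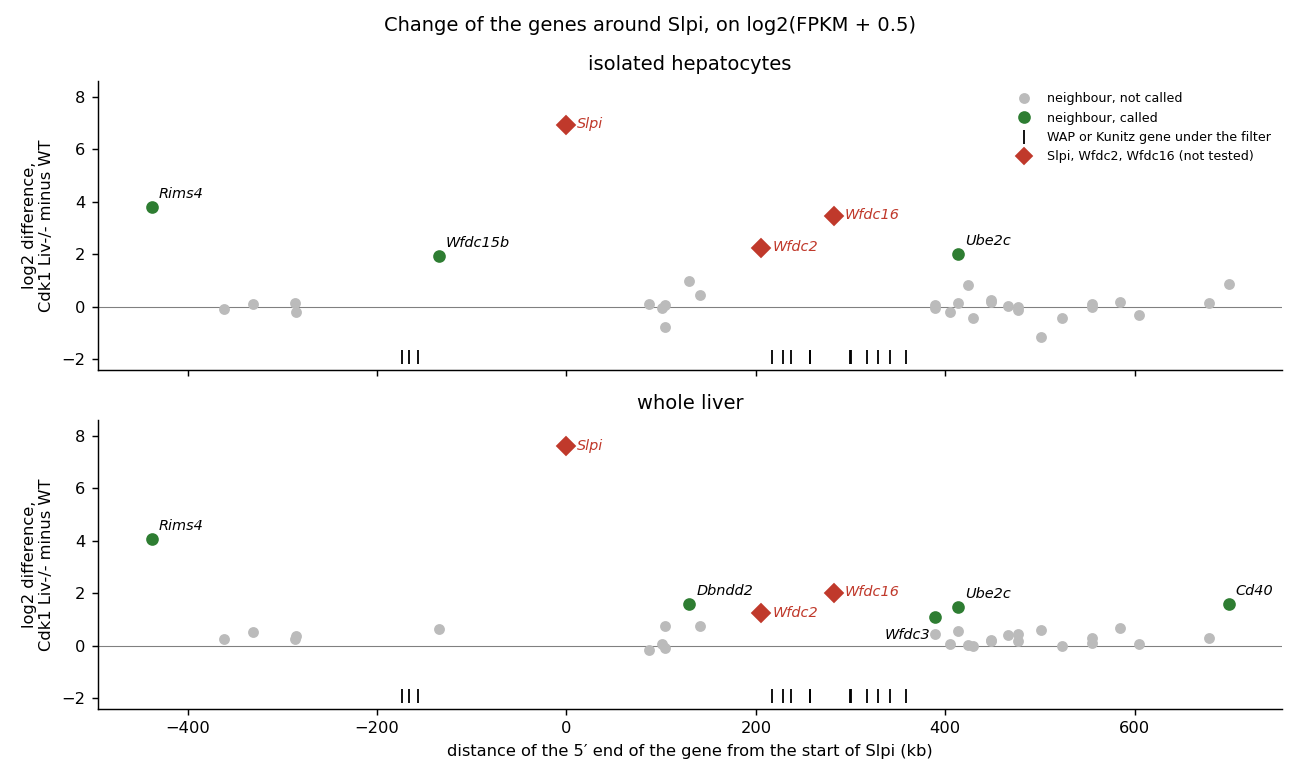
Log2 difference between *Cdk1* Liv-/- and WT libraries, on log2(FPKM + 0.5), against the distance in kb of each gene's 5′ end from the start of *Slpi*, for hepatocytes above and whole liver below. Diamonds are *Slpi*, *Wfdc2* and *Wfdc16*, green points are called neighbours, grey points the other tested neighbours, and ticks WAP or Kunitz genes under the filter.

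Antiproteases of other families were examined to place the WAP genes among the inhibitors of the liver. The Kunitz-domain inhibitors, a family that includes the coagulation inhibitor *Tfpi*, showed 1 call among 5 tested genes, a fall in hepatocytes, where 2.17% of all genes fell. *Tfpi* was measured at 7.49, 5.72 and 14.3 FPKM in WT hepatocytes and at 4.25, 2.25 and 2.47 FPKM in *Cdk1* Liv-/- hepatocytes, lower in 3 of 3 libraries. It fell by 1.42 in log2(FPKM + 0.5) (SE 0.37, limma adjusted p = 0.0629), and in whole liver it differed by 0.36 (limma adjusted p = 0.0977, interaction -1.77 with adjusted p = 0.0564). The endothelial markers given below had median differences of -1.61 in hepatocytes and 0.08 in whole liver. Their part in the level of *Tfpi* was not tested. The call of *Tfpi* was lost without *Cdk1* Liv-/- hepatocytes replicate 2 or 3 (-1.27 and -1.32) or WT hepatocytes replicate 1 or 3 (-1.5 and -1.06), which left 0 Kunitz genes called by limma. It was also lost with no filter and with the replicate block, and held in only 5 of 11 alternatives. *Spint2*, an inhibitor of membrane-bound proteases of epithelia, was at 25.9 against 50 FPKM in hepatocytes and 30.6 against 58.7 FPKM in whole liver, differences of 0.94 and 0.92 that were short of the call (limma adjusted p = 0.00560 and 0.00414, each higher in 3 of 3 libraries). The median log2 difference of the Kunitz genes was 0.27 in hepatocytes and 0.36 in whole liver. In whole liver limma called 0 of the 5, with 3 at an unadjusted p under 0.05, 0 called by the two-sample test and 1 called with a pseudocount of 0.1. Of all genes 28.4% had an unadjusted p under 0.05 in hepatocytes and 46.6% in whole liver, which is the background of this and the later counts of that kind.

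Among 34 serpins and other antiproteases, *Timp1* and *A2m* rose in both compartments. *Timp1*, a metalloproteinase inhibitor, was measured at 0.03, 0.10 and 0.14 FPKM in WT hepatocytes and at 6.83, 9.88 and 12.8 FPKM in *Cdk1* Liv-/- hepatocytes. In whole liver *Timp1* was at 0.35, 0.30 and 0.85 FPKM in WT and at 19.5, 30.1 and 21.6 FPKM in *Cdk1* Liv-/- libraries. It was higher in 3 of 3 libraries of each, by 4.09 in log2(FPKM + 0.5) (SE 0.24, limma adjusted p = 0.00110) and 4.62 (SE 0.26, limma adjusted p = 0.000416). *A2m*, a broad protease trap of plasma, rose from a mean of 1.21 to 9.23 FPKM in hepatocytes (log2 difference 2.47, limma adjusted p = 0.00958) and from 1.11 to 9.23 FPKM in whole liver (2.55, limma adjusted p = 0.0160), in 3 of 3 libraries of each. In the plot of antiprotease genes, *Slpi* lay beyond *Timp1* in both compartments.

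*Serpina3k*, a plasma serpin that inhibits kallikrein, was measured at 195, 150 and 58.4 FPKM in WT hepatocytes and at 715, 339 and 1118 FPKM in *Cdk1* Liv-/- hepatocytes. It rose by 2.43 in log2(FPKM + 0.5) (limma adjusted p = 0.0507, 3 of 3 libraries), a call lost without *Cdk1* Liv-/- hepatocytes replicate 1 or 3 (2.36 and 2.04). The call was also lost with no filter and with the replicate block, and held in 7 of 11 alternatives. In whole liver *Serpina3k* differed by 0.21 (limma adjusted p = 0.790, interaction 2.23 with adjusted p = 0.145). *Mug2*, a protease trap related to *A2m*, was measured at 13.9, 10.4 and 10.8 FPKM in WT whole liver and at 1.99, 2.13 and 3.02 FPKM in *Cdk1* Liv-/- whole liver. It fell there by 2.08 (limma adjusted p = 0.00135, 3 of 3 libraries) and differed by 0.03 in hepatocytes, where libraries overlapped. Reads of the Serpina and Mug families are uncertain because their copies are near identical.

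Of the 34 genes 6 rose and 1 fell in hepatocytes, with a median log2 difference of -0.11, and 5 rose and 3 fell in whole liver, with a median of 0.29. Of all genes 4.20% rose and 2.17% fell in hepatocytes, with a median of 0.05, and 4.59% rose and 1.00% fell in whole liver, with a median of 0.18. *Serpina3c*, 1 of the 34, passed the filter only through the *Cdk1* Liv-/- libraries and was called in neither compartment. Beside the genes given above, *Serpinb1a*, *Serpinb8* and *Serping1* rose and *Serpina1e* fell in hepatocytes, while *Serpina3g*, *Serpinb6a* and *Serpine2* rose and *Serpina1d* and *Serpina1e* fell in whole liver, which are named here after their values were seen. Leaving out 1 library ended the call of *Serpinb1a* without WT hepatocytes replicate 1 (1.27), of *Serping1* without *Cdk1* Liv-/- hepatocytes replicate 1 or 3 (0.95 and 0.90), and of *Serpina3g* without *Cdk1* Liv-/- whole liver replicate 2 or WT whole liver replicate 1 (0.97 and 0.98). The whole liver call of *Serpina1e* ended without *Cdk1* Liv-/- replicate 1 or 3 (-0.99 and -1.43) or WT replicate 1 or 3 (-1.43 and -1.21), and also with no filter. With size factors the medians were -0.19 and 0.10, and the calls of *Serping1* in hepatocytes and *Serpina3g* in whole liver also ended. Without WT hepatocytes replicate 3 the number called in hepatocytes was 9 in place of 7, and without *Cdk1* Liv-/- whole liver replicate 3 it was 7 in place of 8 in whole liver. In the WT compartment comparison limma called 0 of the other WAP genes, 0 of the Kunitz genes and 0 of the 34, with 0, 1 and 9 of them at an unadjusted p under 0.05, as were 18.8% of all genes there, and 0 called by the two-sample test.

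**Figure D4:**
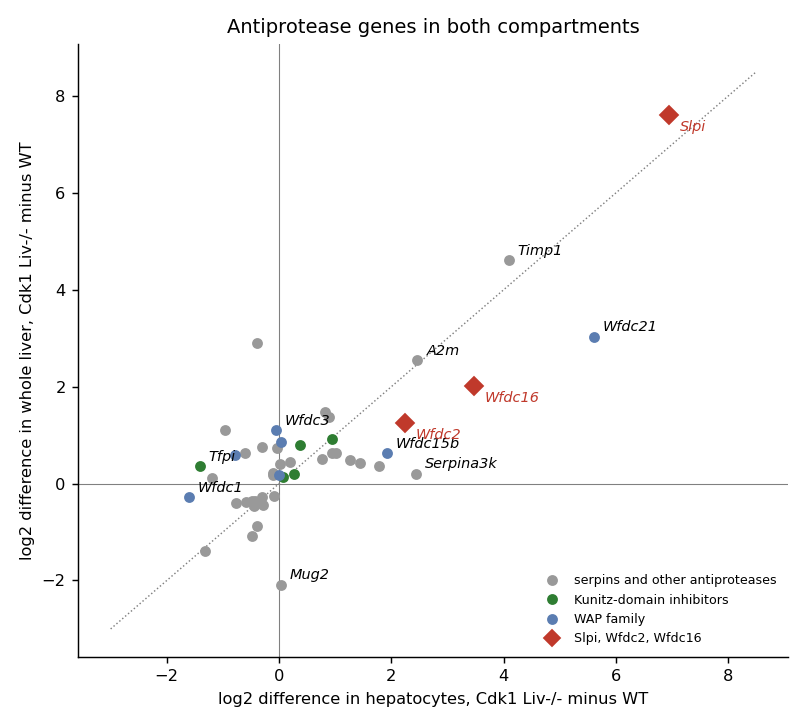
Log2 difference between *Cdk1* Liv-/- and WT libraries in hepatocytes (horizontal axis) and in whole liver (vertical axis), on log2(FPKM + 0.5), 1 point per antiprotease gene. The dotted line marks equal differences, *Slpi* lies above it at 6.94 and 7.62, and *Wfdc21*, *Wfdc2* and *Wfdc16* lie below it.

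Serine proteases, among them the elastase, cathepsin G and trypsin genes that encode targets of SLPI, were mostly scarce in these libraries. By mean level the most abundant of the 17 was *Cela1*, a pancreatic-type elastase gene, in both WT groups and *Prtn3* in both *Cdk1* Liv-/- groups. *Cela1* was at means of 3.99 against 4.35 FPKM in hepatocytes and 4.19 against 5.93 FPKM in whole liver and was not called. *Prtn3*, a serine protease of neutrophil granules that SLPI is known not to inhibit, was measured at 1.52, 1.31 and 2.66 FPKM in WT hepatocytes and at 15.3, 12.9 and 21.7 FPKM in *Cdk1* Liv-/- hepatocytes. In whole liver *Prtn3* was at 1.65, 0.89 and 2.32 FPKM in WT and at 5.22, 11.3 and 7.03 FPKM in *Cdk1* Liv-/- libraries. It was higher in 3 of 3 libraries of each compartment, by 2.89 in log2(FPKM + 0.5) (SE 0.28, limma adjusted p = 0.00353) and 1.97 (limma adjusted p = 0.0116). *Elane*, which encodes neutrophil elastase, was not called at 0.543 against 0.417 FPKM in hepatocytes or at 0.447 against 1.24 FPKM in whole liver. *Ctsg*, which encodes cathepsin G, was at most 0.54 FPKM in any library. Of 17 proteases 6 were tested, and *Prtn3* was the 1 called in each compartment, where 4.20% and 4.59% of all genes rose. The medians of the 6 were 0.02 in hepatocytes, which became -0.02 with size factors, and 0.43 in whole liver. *Cela2a*, another elastase gene, was at 1.84, 1.99 and 1.55 FPKM in WT whole liver and at 0.72, 0.83 and 0.48 FPKM in *Cdk1* Liv-/- whole liver. Its difference of -0.97 there was short of the call (limma adjusted p = 0.00690, lower in 3 of 3 libraries), and it differed by 0.01 in hepatocytes (interaction 0.98 with adjusted p = 0.0707). *Cela2a* was called lower in whole liver without *Cdk1* Liv-/- replicate 1 or 2 (-1 and -1.06), without WT replicate 3 (-1.05), with size factors (-1.09) and with a pseudocount of 0.1 (-1.31). *Elane* was called higher there without *Cdk1* Liv-/- replicate 1 (1.06) and with that pseudocount (1.26). Without the doubted libraries the number called was 1 in each compartment as before.

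SLPI binds annexin A2 and phospholipid scramblases and protects progranulin, and the genes of 2 of these 4 partners, *Anxa2* and *Plscr1*, rose in *Cdk1* Liv-/- whole liver. *Anxa2* was measured at 37.7, 41.9 and 49.0 FPKM in WT whole liver and at 120, 168 and 129 FPKM in *Cdk1* Liv-/- whole liver. It rose by 1.68 in log2(FPKM + 0.5) (limma adjusted p = 0.00199, 3 of 3 libraries) and differed by 0.75 in hepatocytes (limma adjusted p = 0.206). *Plscr1* was at 11.5, 14.1 and 13.1 FPKM in WT whole liver and at 47.9, 41.1 and 43.1 FPKM in *Cdk1* Liv-/- whole liver. *Plscr1* rose by 1.73 (limma adjusted p = 0.000411, 3 of 3 libraries), differed by 0.95 in hepatocytes (limma adjusted p = 0.0157), short of the call, and its effects differed by -0.79 (limma interaction, adjusted p = 0.0576). The progranulin gene *Grn* was at 83.3 against 146 FPKM in whole liver, a difference of 0.80 that was not called (limma adjusted p = 0.00636), and *Plscr4* at 1.63 against 2.62 FPKM differed by 0.55 and was not called either (limma adjusted p = 0.00825, interaction -1.37 with adjusted p = 0.0666). Limma called 2 of 4 partners in whole liver, with a median log2 difference of 1.24, where 4.59% of all genes rose and the median was 0.18. It called 0 of 4 in hepatocytes, with a median of 0.57, 2 at an unadjusted p under 0.05 and 0 called by the two-sample test, and 1 called without *Cdk1* Liv-/- hepatocytes replicate 1 (*Plscr1* at 1.07) or without WT hepatocytes replicate 2. Without the doubted libraries these counts were 0 and 2 as before.

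Interleukin 1 induces *Slpi* in epithelial cells, and its transcripts moved apart between compartments. *Il1b* was measured at 4.43, 3.83 and 4.78 FPKM in WT hepatocytes and at 0.69, 0.69 and 0.72 FPKM in *Cdk1* Liv-/- hepatocytes. In whole liver *Il1b* was at 1.07, 0.93 and 1.70 FPKM in WT and at 3.85, 8 and 2.41 FPKM in *Cdk1* Liv-/- libraries. *Il1b* fell by 2.01 in log2(FPKM + 0.5) in hepatocytes (limma adjusted p = 0.00159) and rose by 1.48 in whole liver (limma adjusted p = 0.0380), in 3 of 3 libraries of each, and these effects differed by -3.49 (limma interaction, adjusted p = 0.0103). The rise of *Il1b* in whole liver was not called without WT whole liver replicate 1 or 2 (1.42 and 1.36), which left 0 cytokines called there by limma. *Il1a* was at 6.77, 4.98 and 7 FPKM in WT hepatocytes and at 2.19, 1.11 and 1.07 FPKM in *Cdk1* Liv-/- hepatocytes, a fall of 1.82 (limma adjusted p = 0.0109, 3 of 3 libraries). In whole liver *Il1a* differed by 0.35 (limma adjusted p = 0.182, interaction -2.17 with adjusted p = 0.0218). Of 4 tested cytokines 2 fell in hepatocytes, with a median of -1.13, and 1 rose in whole liver, with a median of 0.55, where 2.17% of all genes fell in hepatocytes and 4.59% rose in whole liver. These counts were the same without the doubted libraries. In WT mice *Il1b* was higher in hepatocytes than in whole liver by 1.5 (limma adjusted p = 0.0623, 3 of 3 libraries). That call was lost without WT hepatocytes replicate 1 or 2 (1.49 and 1.58) or WT whole liver replicate 1 or 2 (1.45 and 1.38). It was also lost with the replicate block, with which limma called 0 genes between WT compartments. The adjusted p ranged from 0.0428 to 0.261 over 11 alternatives. The mean macrophage sum was 465 FPKM in WT hepatocytes and 626 FPKM in WT whole liver. In the same hepatocyte libraries the summed macrophage markers were 411, 227 and 756 FPKM in WT and 255, 192 and 173 FPKM in *Cdk1* Liv-/- mice, and their part in the interleukin 1 levels was not tested.

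Markers of other cells were examined beside *Slpi* because neutrophils, macrophages and epithelial cells can express it, and in bulk RNA fewer cells of a type and less RNA per cell cannot be told apart. The summed neutrophil markers in *Cdk1* Liv-/- hepatocytes lay within or below the range of WT hepatocytes, whose upper end was the doubted WT replicate 3. Against WT replicates 1 and 2 alone, *Cdk1* Liv-/- hepatocytes replicates 1 and 3 were higher and replicate 2 was lower. Without WT hepatocytes replicate 3 the number of neutrophil markers called in hepatocytes was 0 as before. The 13 neutrophil markers summed to 15.5, 12.7 and 53.7 FPKM in WT hepatocytes and to 22.4, 10.7 and 21.4 FPKM in *Cdk1* Liv-/- hepatocytes, with *S100a9* the most abundant. In whole liver the neutrophil sum was 77.1, 48.5 and 74.3 FPKM in WT libraries and 94.4, 333 and 264 FPKM in *Cdk1* Liv-/- libraries. Limma called 0 of 13 in hepatocytes, with 0 at an unadjusted p under 0.05 and 0 called by the two-sample test, and the median log2 difference was -0.21. In whole liver 7 of 13 rose, with a median of 1.27, where 4.59% of all genes rose and the median was 0.18. Of the 13, *Ly6g* and *Cxcr2*, the latter 1 of the 7, passed the filter only through the *Cdk1* Liv-/- libraries. That count was 1 without *Cdk1* Liv-/- whole liver replicate 2 or without WT whole liver replicate 1 or 2, 2 without *Cdk1* Liv-/- whole liver replicate 3 and 4 without WT whole liver replicate 3. The highest count with 1 library left out was 10, and no filter also changed the count. *S100a9* in whole liver rose by 1.72 (limma adjusted p = 0.0440, 3 of 3 libraries), a call lost without *Cdk1* Liv-/- replicate 2 or 3 (1.36 and 1.53) or WT replicate 1 or 2 (1.82 and 1.51). That call was also lost with no filter. Among *Cdk1* Liv-/- whole liver libraries *Slpi* was highest in replicate 2 and lowest in replicate 1, as was the neutrophil sum, whereas in *Cdk1* Liv-/- hepatocytes the neutrophil sum was lowest in replicate 2, where *Slpi* was highest.

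The 12 macrophage markers summed to 411, 227 and 756 FPKM in WT hepatocytes and to 255, 192 and 173 FPKM in *Cdk1* Liv-/- hepatocytes. In whole liver the macrophage sum was 580, 639 and 658 FPKM in WT libraries and 782, 1105 and 824 FPKM in *Cdk1* Liv-/- libraries. The most abundant macrophage marker by group mean was *Clec4f* in both WT groups and *Cd5l* in both *Cdk1* Liv-/- groups. In hepatocytes 1 of 12 fell (*Adgre1*), with a median log2 difference of -1.09, and in whole liver 1 rose (*Lyz2*), with a median of 0.31, where 2.17% and 4.59% of all genes did so. The hepatocyte count was 0 by limma without WT replicate 3, as without WT replicate 1 or any 1 *Cdk1* Liv-/- library, and 11 without WT replicate 2, and 7 were at an unadjusted p under 0.05. The whole liver count was 2 without *Cdk1* Liv-/- whole liver replicate 1 and 1 without replicate 3.

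The 12 cholangiocyte markers, genes of bile duct epithelium, summed to 56.8, 61.7 and 69.5 FPKM in WT hepatocytes and to 124, 180 and 140 FPKM in *Cdk1* Liv-/- hepatocytes. In whole liver the cholangiocyte sum was 104, 112 and 90.4 FPKM in WT libraries and 331, 190 and 332 FPKM in *Cdk1* Liv-/- libraries. The most abundant was *Prom1* in WT hepatocytes and *Spp1* in the other groups. Of 10 tested 3 rose in hepatocytes (*Cldn7*, *Spp1* and *Sox9*), with a median log2 difference of 0.37, and 4 in whole liver (these and *Epcam*), with a median of 0.90. Of all genes 4.20% rose in hepatocytes and 4.59% in whole liver. *Spp1*, the osteopontin gene, rose by 2.20 in hepatocytes (20.1 to 92.8 FPKM, limma adjusted p = 0.0132) and by 1.96 in whole liver (51.5 to 209 FPKM, limma adjusted p = 0.00615), in 3 of 3 libraries of each. The whole liver call of *Epcam* (log2 difference 1.03) held in only 4 of 11 alternatives. It was lost without *Cdk1* Liv-/- whole liver replicate 1 or 3 (0.75 and 0.95), without WT whole liver replicate 1, 2 or 3 (1.12, 1.06 and 0.91), with size factors (0.84) and with no filter. The whole liver count was 3 without *Cdk1* Liv-/- replicate 3, and the hepatocyte count was 3 without WT replicate 3. *Slpi* and the cholangiocyte sum were both highest in replicate 2 and lowest in replicate 1 of *Cdk1* Liv-/- hepatocytes. In *Cdk1* Liv-/- whole liver the cholangiocyte sum was lowest in replicate 2, where *Slpi* was highest and *Wfdc2* and *Wfdc16* were lowest. The mean cholangiocyte sum was 148 FPKM in *Cdk1* Liv-/- hepatocytes and 284 FPKM in *Cdk1* Liv-/- whole liver. Most of both was *Spp1*, at 92.8 and 209 FPKM, so the order of these sums can rest on this 1 gene.

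The 12 hepatocyte markers, led by *Alb*, summed to between 82186 and 90367 FPKM in WT hepatocytes and 56535 and 59437 FPKM in *Cdk1* Liv-/- hepatocytes. In whole liver their sum was between 82810 and 85722 FPKM in WT libraries and 59164 and 66268 FPKM in *Cdk1* Liv-/- libraries, so hepatocyte transcripts led in all 4 groups. In hepatocytes 1 of 12 fell (*Apoa1*, log2 difference -1.12, limma adjusted p = 0.0293, 3 of 3 libraries), where 2.17% of all genes fell. The median of the 12 was 0.08. The count was 2 without WT replicate 3 or without *Cdk1* Liv-/- replicate 1. *Apoa1* was not called without *Cdk1* Liv-/- replicate 2 (-0.97), with no filter or with the replicate block. Its call held in 8 of 11 alternatives. In whole liver limma called 0 of 12, with 4 at an unadjusted p under 0.05, 0 called by the two-sample test, 1 called without WT whole liver replicate 2, 2 called with size factors and a median of -0.30, which became -0.53 with size factors.

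The 8 stellate cell markers, led by *Dcn* in hepatocytes and *Col3a1* in whole liver, summed to 192, 117 and 394 FPKM in WT hepatocytes and to 119, 117 and 101 FPKM in *Cdk1* Liv-/- hepatocytes. Their whole liver sum was 424, 419 and 484 FPKM in WT libraries and 816, 1012 and 777 FPKM in *Cdk1* Liv-/- libraries. Limma called 0 of 8 in hepatocytes, with a median of -0.78, 2 at an unadjusted p under 0.05, 0 called by the two-sample test and 4 called without WT hepatocytes replicate 2. In whole liver 2 of 8 rose (*Col1a1* and *Col3a1*), with a median of 0.74, where 4.59% of all genes rose. The 6 endothelial markers, led by *Clec4g*, summed to 95.4, 63.4 and 171 FPKM in WT hepatocytes and to 44.1, 29.2 and 31.5 FPKM in *Cdk1* Liv-/- hepatocytes. All 6 fell there, 5 by the two-sample test, with a median log2 difference of -1.61, where 2.17% of all genes fell and the median was 0.05. The count was 5 without WT hepatocytes replicate 3, 2 without WT replicate 1, and 3, 2 and 2 without *Cdk1* Liv-/- replicates 1, 2 and 3. It was also lower with no filter and with the replicate block, both of which ended the calls of *Clec4g*, *Pecam1* and *Cdh5*. In whole liver the endothelial sum was 81.4, 97.5 and 117 FPKM in WT libraries and 103, 125 and 101 FPKM in *Cdk1* Liv-/- libraries. There limma called 0 of 6, with 1 at an unadjusted p under 0.05, 0 called by the two-sample test, 1 called without *Cdk1* Liv-/- whole liver replicate 2 and a median of 0.08, which became -0.13 with size factors. The part of each of these marker lists in the levels of *Slpi*, *Wfdc2* and *Wfdc16* was not tested.

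**Figure D5:**
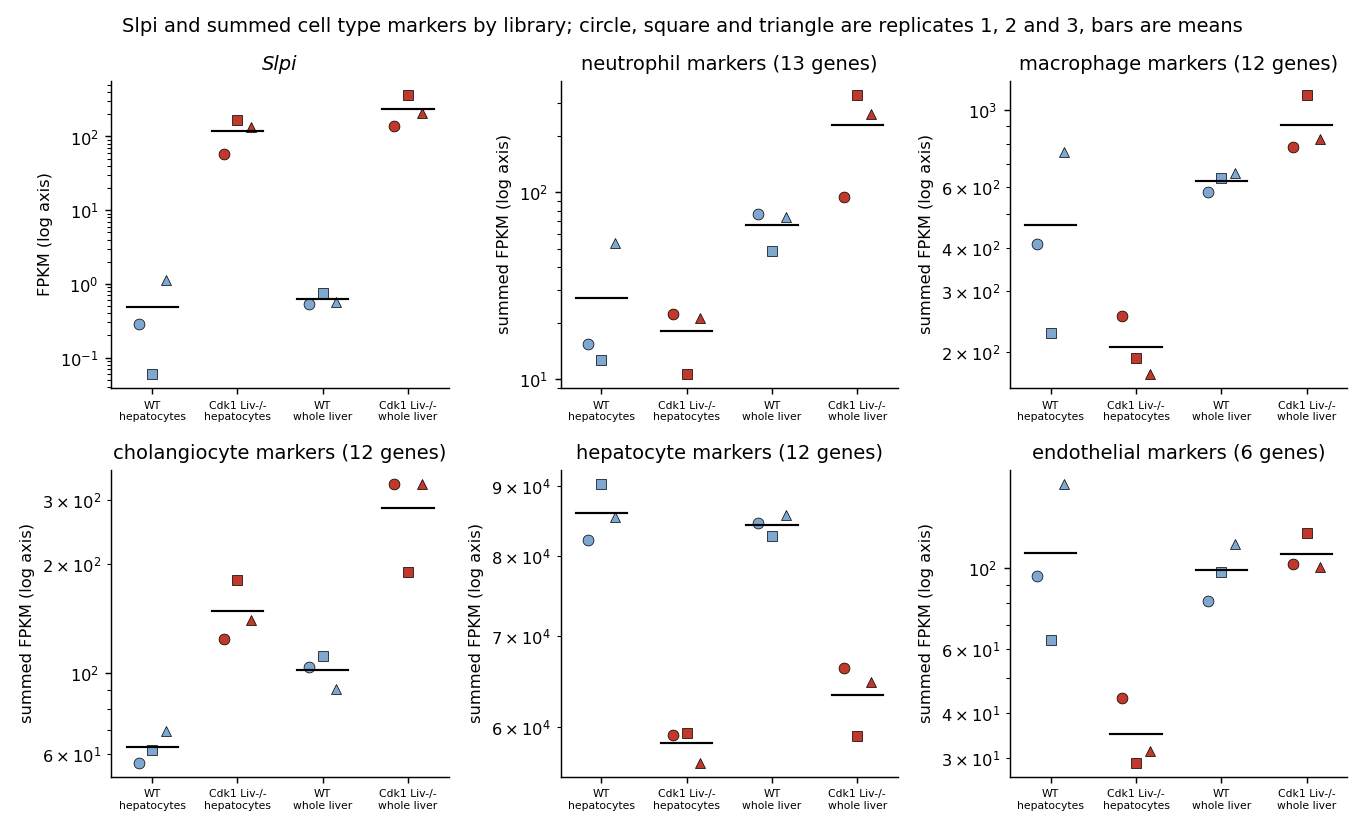
FPKM of *Slpi* and summed FPKM of cell type markers, on log axes, in each of 12 libraries, with replicates as separate marks and bars at the group means (n = 3). *Slpi* is high in both *Cdk1* Liv-/- groups, the neutrophil sum is high in *Cdk1* Liv-/- whole liver, and the macrophage and endothelial sums are highest among hepatocyte libraries in WT replicate 3.

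The genes whose pattern over all 12 libraries was most like that of each WAP gene were found by Pearson's r of log2(FPKM + 0.5) among 12282 genes with a mean of at least 1 FPKM. These correlations are a description without a p, since the 12 libraries share genotypes and compartments and fall into 4 groups. *Slpi* was most like *Clu* (r = 0.995), which encodes the secreted chaperone clusterin, followed by *Tmem71* (0.994), *Gm13251* (0.993), *Gm19705* (0.992) and *Nfe2l2* (0.992). *Clu* was at 354, 390 and 414 FPKM in WT hepatocytes and at 1612, 2108 and 2066 FPKM in *Cdk1* Liv-/- hepatocytes. In whole liver mean *Clu* was 441 FPKM in WT libraries and 2265 FPKM in *Cdk1* Liv-/- libraries. *Clu* was thus abundant in WT liver, where *Slpi* was scarce. Both genes were highest by mean in *Cdk1* Liv-/- whole liver, an order from which nothing is read, since likeness chose *Clu*.

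*Wfdc2* was most like *Hamp2* (r = 0.984), a gene of the hepcidin family, followed by *Oip5* (0.983), *Pkp4* (0.982), *Crygn* (0.976) and *Ccnb2* (0.972). *Hamp2* was at 5.18, 4.95 and 2.88 FPKM in WT hepatocytes and at 629, 343 and 190 FPKM in *Cdk1* Liv-/- hepatocytes, with a mean of 61.1 FPKM in *Cdk1* Liv-/- whole liver. *Wfdc16* was most like *Cox6b2* (r = 0.985), which encodes a cytochrome c oxidase subunit, followed by *Nrbf2* (0.985), *Cxcl14* (0.984), *Tnnc1* (0.982) and *Srd5a1* (0.981). *Cox6b2* was at 3.71, 2.66 and 3.38 FPKM in WT hepatocytes and at 69.0, 42.8 and 34.9 FPKM in *Cdk1* Liv-/- hepatocytes, with a mean of 23.6 FPKM in *Cdk1* Liv-/- whole liver. Like *Wfdc2* and *Wfdc16*, both of these genes were higher in hepatocytes than in whole liver of *Cdk1* Liv-/- mice by mean level. Since *Hamp2* and *Cox6b2* were chosen by likeness over these libraries, nothing is read from that order. Between the WAP genes r was 0.968 for *Wfdc2* and *Wfdc16*, 0.867 for *Slpi* and *Wfdc16* and 0.783 for *Slpi* and *Wfdc2*.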

How the data were processed

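The deposited table of FPKM values was used as the authors made it, with RSEM 1.2.31 after STAR alignment to mm10 according to the submitters' processing notes, and with no scaling between libraries. The annotation release is not given, and gene positions were taken from GENCODE and RefSeq annotation of that build. Genes with a mean of at least 0.1 FPKM were tested with limma 3.58.1 in R 4.3.3 (moderated test with a mean-variance trend, two-sided) on log2(FPKM + 0.5). Each contrast was fitted on its own 6 libraries and the interaction of genotype and compartment on all 12, with Benjamini-Hochberg adjustment over 17386 genes. A call needed an adjusted p of at most 0.1 and, outside the interaction of single genes, a log2 difference of at least 1. Depth was estimated from the steps between low values, at 34.7 to 49.8 reads per FPKM and kilobase. Genes named were the WAP genes, neighbours within 500 kb, up to 4 called genes of each list with the largest differences (2 by level where none was called) and 5 genes most like each member. *Wfdc17*, *Wfdc18*, *Spint2*, *Elane*, *Ctsg*, *Cela1*, *Cela2a*, *Grn* and *Plscr4* were chosen after their values were seen, as were the most abundant markers. Alternatives were a pseudocount of 0.1, no filter on low values, median-ratio size factors, a block on replicate number, a two-sample test with pooled variance and q-values, and leaving out each library. Leaving out both doubted libraries was an alternative chosen after seeing the data. The genes and lists were chosen with earlier results of these data known.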

Additional observations from a re-analysis of the deposited data

Results flagged for a closer look

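The effect of genotype differed between hepatocytes and whole liver, by limma's interaction with a threshold of 0.1 on the adjusted p, for 23 of 74 named genes (31.1%), where 9.8% of all genes passed, given here as the hepatocyte effect minus the whole liver effect in log2. Nothing is read from the share of the named genes, many of which were chosen by their values. *Slpi*, *Wfdc2* and *Wfdc16* were not tested in this way, *Wfdc15b* is left out because it passed the filter only through the *Cdk1* Liv-/- libraries, and genes named for their likeness to *Slpi*, *Wfdc2* or *Wfdc16* are left out because that pattern chose them. Among WAP and Kunitz genes the difference was 2.58 for *Wfdc21* (limma adjusted p = 0.0335), -1.16 for *Wfdc3* (0.0701), -0.84 for *Wfdc18* (0.0362) and -1.77 for *Tfpi* (0.0564). Among serpins it was 1.40 for *Serpinb8* (limma adjusted p = 0.0273), -2.07 for *Serpina3g* (0.0564) and 0.61 for *Serpina1d* (0.0806). Among the other neighbours of *Slpi* it was -0.33 for *Ywhab* (limma adjusted p = 0.0961), -0.56 for *Tomm34* (0.0666) and -1.75 for *Pltp* (0.0818). For the protease gene *Cela2a* it was 0.98 (limma adjusted p = 0.0707). For partners and cytokines it was -0.79 for *Plscr1* (limma adjusted p = 0.0576), -1.37 for *Plscr4* (0.0666), -3.49 for *Il1b* (0.0103) and -2.17 for *Il1a* (0.0218). For markers of macrophages and stellate cells it was -1.57 for *Adgre1* (limma adjusted p = 0.0870), -1.95 for *Lyz2* (0.0548), -1.67 for *Dcn* (0.0841) and -2.10 for *Col3a1* (0.0870). For endothelial markers it was -1.89 for *Kdr* (limma adjusted p = 0.0439), -1.51 for *Clec4g* (0.0708), -1.72 for *Pecam1* (0.0846) and -1.74 for *Cdh5* (0.0731). With both doubted libraries left out, 10 of the 23 had a limma adjusted p of at most 0.1, and these were *Wfdc21* (0.0833), *Wfdc18* (0.0988), *Serpinb8* (0.0452), *Serpina3g* (0.0566), *Tfpi* (0.0904), *Il1b* (0.0182), *Il1a* (0.0557), *Lyz2* (0.0904), *Col3a1* (0.0915) and *Kdr* (0.0867). *Serpinb8*, *Il1a* and *Il1b* passed in 17 of 17 alternatives, and *Wfdc21*, *Wfdc18* and *Kdr* in 16 of 17, not without WT whole liver replicate 1. *Tfpi*, *Lyz2* and *Serpina3g* passed in 14 of 17 and *Plscr1* in 13. *Wfdc3* and *Plscr4* passed in 8, *Tomm34* and *Cdh5* in 7, *Serpina1d* and *Cela2a* in 6, *Pltp* and *Col3a1* in 4, *Dcn* and *Clec4g* in 3, and *Ywhab*, *Adgre1* and *Pecam1* in 2.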

How the results depend on the processing

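In all alternatives *Slpi*, *Wfdc2* and *Wfdc16* had the same direction of difference between genotypes. With a pseudocount of 0.1 the log2 difference of *Slpi* was 8.01 in hepatocytes and 8.26 in whole liver and that of *Wfdc16* was 4.24 and 2.59, larger because less is added to low WT values. With 1 library left out, hepatocyte and whole liver differences ranged from 6.60 to 7.40 and 7.24 to 7.95 for *Slpi*, 1.99 to 2.42 and 1.07 to 1.56 for *Wfdc2*, and 3.23 to 3.63 and 1.80 to 2.21 for *Wfdc16*. *Cdk1* in whole liver passed the call with size factors at -1.06. The number of genes called between WT compartments was 81 and became 172 with a pseudocount of 0.1, 41 with no filter, 41 with size factors, 43 with the two-sample test and from 1 to 527 with 1 library left out. With the replicate block limma called 0, with 3249 genes at an unadjusted p under 0.05. Genes that rose in hepatocytes became 1114 with a pseudocount of 0.1, and genes that fell became 647 with that pseudocount, 165 with no filter, 197 with the replicate block and 168 to 592 with 1 library left out. Genes that rose in whole liver became 1370 with a pseudocount of 0.1 and 513 with size factors, and genes that fell became 280 with a pseudocount of 0.1. Called neighbours in hepatocytes ranged from 3 to 5 with 1 library left out. Where not given, the cause was not tested. Of the differences of the other named genes, leaving out 1 library kept 606 on their side of the call, ended 196 calls and added 8. Size factors kept 99 and ended 13, no filter 86 and 26, the replicate block 91 and 21, and the two-sample test, which has no interaction, 87 and 2. The pseudocount of 0.1 kept 108, ended 1 and added 3. The number of marker or list genes called also moved by more than 1.5 times with size factors for macrophage markers in hepatocytes (1 to 5), hepatocyte markers (1 to 2 in hepatocytes, 0 to 2 in whole liver), stellate cell markers in hepatocytes (0 to 1), proteases (1 to 2) and other WAP genes (2 to 1) in whole liver. With no filter and with the replicate block it moved by that much in hepatocytes for Kunitz genes and macrophage, hepatocyte and endothelial markers. No filter also moved it for neutrophil markers in whole liver. A pseudocount of 0.1 moved it in whole liver for Kunitz genes (0 to 1) and cytokines (1 to 2). The two-sample test moved it for macrophage markers in hepatocytes (1 to 0). Libraries with the same replicate number were not treated as pairs outside the replicate block, with correlations of their deviations from -0.32 to 0.24. The labels do not say whether such libraries came from the same mouse. A fit without a library takes the spread of the remaining pair to be like that of the other groups. The depth limits values such as the 0.06 FPKM of *Slpi*, which rest on few reads.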
